A study of Drosophila melanogaster with 2 samples.

Results

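The mitochondrial ribosomal protein genes of the fruit fly (Drosophila melanogaster) were examined for peaks of the protein encoded by CG5953. They were taken as the protein-coding genes whose symbol begins with mRpL or mRpS in the Ensembl annotation of BDGP6, the assembly also called dm6. The prefixes are named for the large and the small subunit, and genes are grouped here by prefix alone. The rule gave 73 genes, 47 named mRpL and 26 named mRpS, out of 13968 protein-coding genes on the chromosome arms (0.523%). Flies carried a transgene for CG5953 joined to enhanced green fluorescent protein (eGFP), chromatin came from whole embryos aged 0 to 24 h, and DNA bound by the fusion was recovered with an antibody against the fluorescent protein and sequenced (ChIP-seq). Both libraries were labelled biological replicates of this 1 group, so there was no comparison between groups, and the control libraries are not analysed here. The labels do not say whether the untagged gene was also present or how many embryos were pooled. Whole embryos of all stages were mixed, so a site occupied strongly in few cells and one occupied weakly in many cannot be told apart.

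Mitochondria keep their own ribosome, the mitoribosome, which translates the few messages encoded in mitochondrial DNA into core subunits of the respiratory chain and the ATP synthase. Its ribosomal RNAs are transcribed inside the organelle, but its proteins are all encoded in the nucleus, made in the cytosol and imported. Some of these proteins descend from bacterial ribosomal proteins and keep their numbers (L4, L23, S7), whereas others, among them the products of mRpL41, mRpS23 and mRpS26, are found in mitochondrial ribosomes without a bacterial counterpart.

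The DNA under the summits, the highest points of the peaks, is shown for 6 of the 7 strongest peaks at these genes, so that the runs of A and T in them can be read. Each is a stretch of the Release 6 genome from 50 bases before the summit to 50 bases after it, read from the RefSeq sequence 5′ to 3′ on the strand of the gene. Capitals mark every run of 8 or more bases that are A or T. The positions on dm6 are chr2L:13835418-13835518 (mRpS23, minus strand), chr3R:15229470-15229570 (mRpS10, plus strand), chr3L:2373546-2373646 (mRpL23, minus strand), chr2L:4945449-4945549 (mRpL24, minus strand), chr2L:4850489-4850589 (mRpS2, minus strand) and chr3L:4364412-4364512 (mRpS6, plus strand).
mRpS23: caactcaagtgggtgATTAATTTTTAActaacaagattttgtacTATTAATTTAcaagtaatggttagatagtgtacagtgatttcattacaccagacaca
mRpS10: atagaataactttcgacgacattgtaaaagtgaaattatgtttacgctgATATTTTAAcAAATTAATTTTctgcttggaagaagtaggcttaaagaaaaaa
mRpL23: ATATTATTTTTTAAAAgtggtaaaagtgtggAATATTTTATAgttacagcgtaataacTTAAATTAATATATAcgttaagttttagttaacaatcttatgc
mRpL24: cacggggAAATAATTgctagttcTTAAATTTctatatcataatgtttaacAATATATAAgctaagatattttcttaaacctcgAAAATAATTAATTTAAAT
mRpS2: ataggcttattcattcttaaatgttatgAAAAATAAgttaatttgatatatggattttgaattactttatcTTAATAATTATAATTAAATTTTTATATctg
mRpS6: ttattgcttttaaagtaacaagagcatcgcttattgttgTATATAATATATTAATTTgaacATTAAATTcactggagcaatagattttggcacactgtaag
The longest such run was 27 bases under the mRpS2 summit and 11 under the mRpS10 summit, and the other 4 lay between these.

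Peaks were found at 11 of the 73 genes (15.1%; Clopper-Pearson 95% interval 7.77 to 25.4%), against 11.3% of all protein-coding genes (1573 of 13968). A gene was counted, and is called bound here, when the conservative list had a summit at most 500 bp from an annotated transcription start site (TSS) of that gene. That list held 3016 peaks of both libraries that passed the authors' limit on the irreproducible discovery rate. This rate (IDR) is high for peaks whose rank fails to repeat from list to list. The background share lay inside the interval, so a higher share at these genes was not detectable with 73 of them. The interval covers the counting of genes only, since peak lists hold no reads and the depth is unknown. Of the genes named mRpL 5 of 47 were bound (10.6%, interval 3.55 to 23.1%). Of those named mRpS 6 of 26 were bound (23.1%, interval 8.97 to 43.6%), and the intervals overlap. The genes for the cytosolic ribosome, which makes all other proteins of the cell, had a higher share, 50 of 92 (54.3%; 43.6 to 64.8%), an interval that does not overlap that of the 73 genes.

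Other lists, windows and limits gave between 8 and 13 genes, with 1 exception. With the optimal list, a second thresholded list of both libraries, 13 genes were bound (17.8%, against 12.1% of protein-coding genes). Replicate 1's own thresholded list gave 10 (13.7% against 8.09%) and replicate 2's own list gave 9 (12.3% against 7.35%). A window of 250 bp gave 9 (12.3% against 8.73%), and 1000 bp gave 12 (16.4% against 13.8%). Keeping only peaks with the top deposited score of 1000 left 10 genes (13.7% against 8.92%), and keeping only peaks with a signal at or above the median of the list left 8 (11.0% against 6.78%). Counting any base of a peak in place of its summit gave 11 (15.1% against 12.3%), as did 1 TSS a gene (15.1% against 9.65%). In all of these the share at mitochondrial ribosomal protein genes lay above the background, and the background lay inside its interval. The exception in direction was the rule that gives each peak to its nearest protein-coding TSS alone, under which 5 genes remained (6.85%; 2.26 to 15.3%) against 8.68%.

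**Figure D1:**
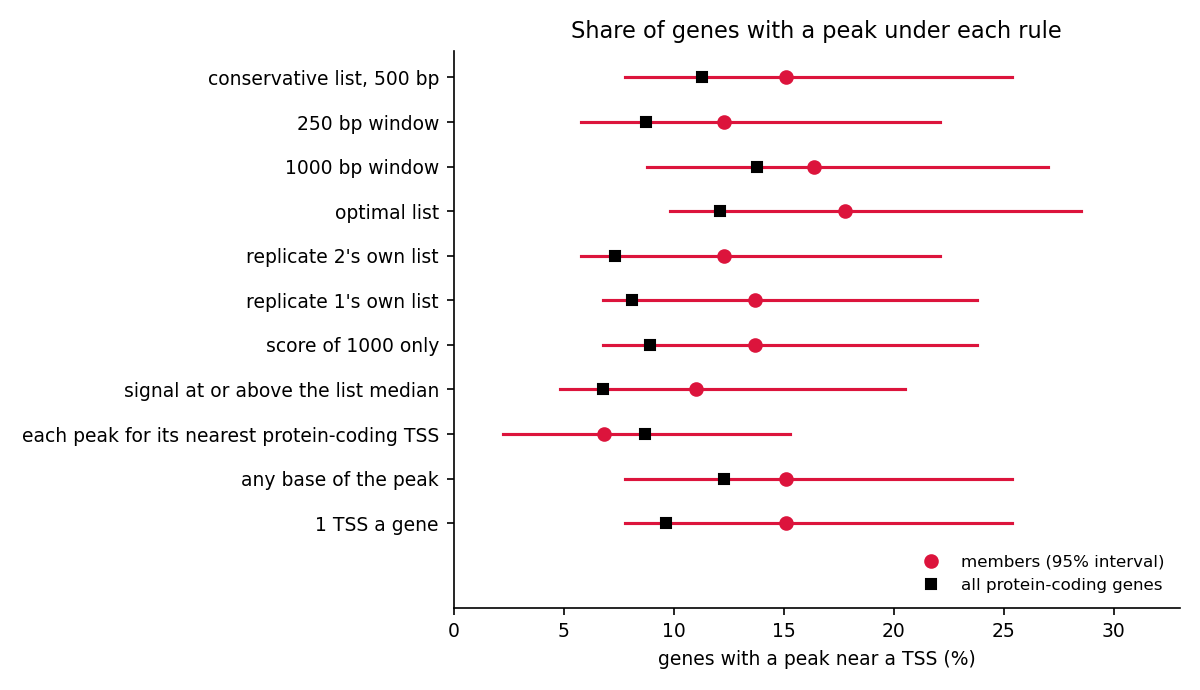
Share of genes with a peak near a TSS (percent, x axis) under each rule (y axis). Red points are the 73 mitochondrial ribosomal protein genes with Clopper-Pearson 95% intervals and black squares are all 13968 protein-coding genes. The black square lies inside the red interval in every row, and above the red point only where each peak counts for its nearest protein-coding TSS (8.68% against 6.85%).

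The bound genes had peaks of a higher median signal than bound genes in general. The signal, the authors' own value per peak in a unit the files do not state, had a median of 270 at the 11 genes (64.1 to 921), against 94.3 over all bound protein-coding genes, with an upper quartile of 145 and a highest value of 1168. The size of the gap depended on the rule. The median was 169 (13 genes) against 91.3 with the optimal list, 169 (5 genes) against 92.6 where each peak counted for its nearest protein-coding TSS alone, and 474 (8 genes) against 131 among peaks at or above the list's median signal. In the replicates' own lists it was 183 against 66.1 in replicate 1 and 122 against 57.7 in replicate 2, above the background median in both. Of the 11 genes, 7 lay above that upper quartile and 3 lay at or below the median. The bound cytosolic ribosomal protein genes had a median of 118 and a highest value of 320. Among the 25 strongest conservative peaks, 4 lay at mitochondrial ribosomal protein genes. Those 25 peaks held 27 protein-coding genes (1.72% of the bound ones), 4 of them these. No further one was added among the 100 strongest peaks. At mRpS23 and mRpS10, both among the 4, another gene's TSS was nearer to the summit (96 and 112 bp, against 396 and 145 bp). These counts describe 11 peaks and carry no test.

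The strongest peak of the 11 lay at a large-subunit gene. At mRpL41 (FBgn0034001), for a protein found only in mitochondrial ribosomes, the peak (chr2R:15217639-15217872) had a signal of 921, with 499 in replicate 1's own list and 425 in replicate 2's. It was the peak of rank 4 among all 3016, and its summit lay 134 bp upstream of the TSS. The other TSS within 500 bp was that of the noncoding gene lncRNA:CR44463.

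The next 3 large-subunit genes belong to bacterial families. At mRpL23 (FBgn0035335), whose bacterial relative sits at the exit of the tunnel for the growing chain, the signal was 616 (chr3L:2373504-2373702; 336 and 283 in the replicates), rank 22. Its summit lay 82 bp downstream of the TSS, in an intron of mRpL23, and it was the 1 conservative summit of the 11 that did not lie upstream. At mRpL24 (FBgn0031651), another protein of the tunnel exit region in bacteria, the signal was 332 (chr2L:4945427-4945579; 208 and 117 in the replicates). At mRpL20 (FBgn0036335) it was 131 (chr3L:13017955-13018250; 88.8 and 45.9). The signal in replicate 1 was 1.78 times that in replicate 2 at mRpL24 and 1.93 times at mRpL20, against 1.17 at mRpL41 and 1.19 at mRpL23. The remaining one, mRpL4 (FBgn0001995), whose bacterial relative reaches into the tunnel wall, had 81.1 (chr2L:16329096-16329391) and passed the limit in replicate 1's own list (47.1) but not in replicate 2's, where the ranked peak had a signal of 31.5.

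Small-subunit genes gave the peaks of rank 10 and 11. At mRpS23 (FBgn0260407), a mitochondria-specific protein, the signal was 763 (chr2L:13835355-13835557; 405 and 349 in the replicates). At mRpS10 (FBgn0038307), a bacterial family protein of the small subunit head, it was 727 (chr3R:15229435-15229639; 398 and 332). In both replicates these genes lay close together and far above every other small-subunit gene.

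The other small-subunit genes had lower peaks. At mRpS2 (FBgn0031639) the signal was 270 (chr2L:4850517-4850609; 159 and 122), and at mRpS6 (FBgn0035534) it was 169 (chr3L:4364314-4364609; 87.9 and 84.4), the closest match between replicates of the 11. Both belong to bacterial families. At mRpS7 (FBgn0032236), a bacterial family protein that binds the small ribosomal RNA, the conservative peak of 81.8 (chr2L:10386347-10386642) was in neither replicate's own thresholded list, with ranked signals of 44.4 and 33.1. At mRpS26 (FBgn0036774), a mitochondria-specific protein, the weakest of the 11 (64.1; chr3L:18105969-18106264) passed in replicate 2's own list (28.3) but not in replicate 1's, where its ranked signal was 31.7.

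A pair of small-subunit genes passed only outside the conservative list. At mRpS16 (FBgn0033907), a bacterial family protein, a peak of 61.3 (chr2R:14173431-14173726) was in the optimal list and in replicate 1's own list (37.0), with a ranked signal of 19.5 in replicate 2. At mRpS11 (FBgn0038474), a further bacterial family protein, a peak of 55.8 (chr3R:17072107-17072402) was in the optimal list alone. The ranked peaks of replicates 1 and 2 that overlap it had signals of 25.4 and 25.7. Their summits were shifted by -98 and -60 bp, away from the TSS and outside the window. Within the window the strongest ranked signals were 12.6 and 28.4. For mRpL55 a conservative peak with a signal of 57.0 lay 964 bp upstream, outside the window. In all, 13 genes had a summit in at least 1 thresholded list, 8 had one in all 4 lists (mRpL41, mRpS23, mRpS10, mRpL23, mRpL24, mRpS2, mRpS6 and mRpL20), and 60 had none. The 11 conservative peaks were in the optimal list with the same signals.

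**Figure D2:**
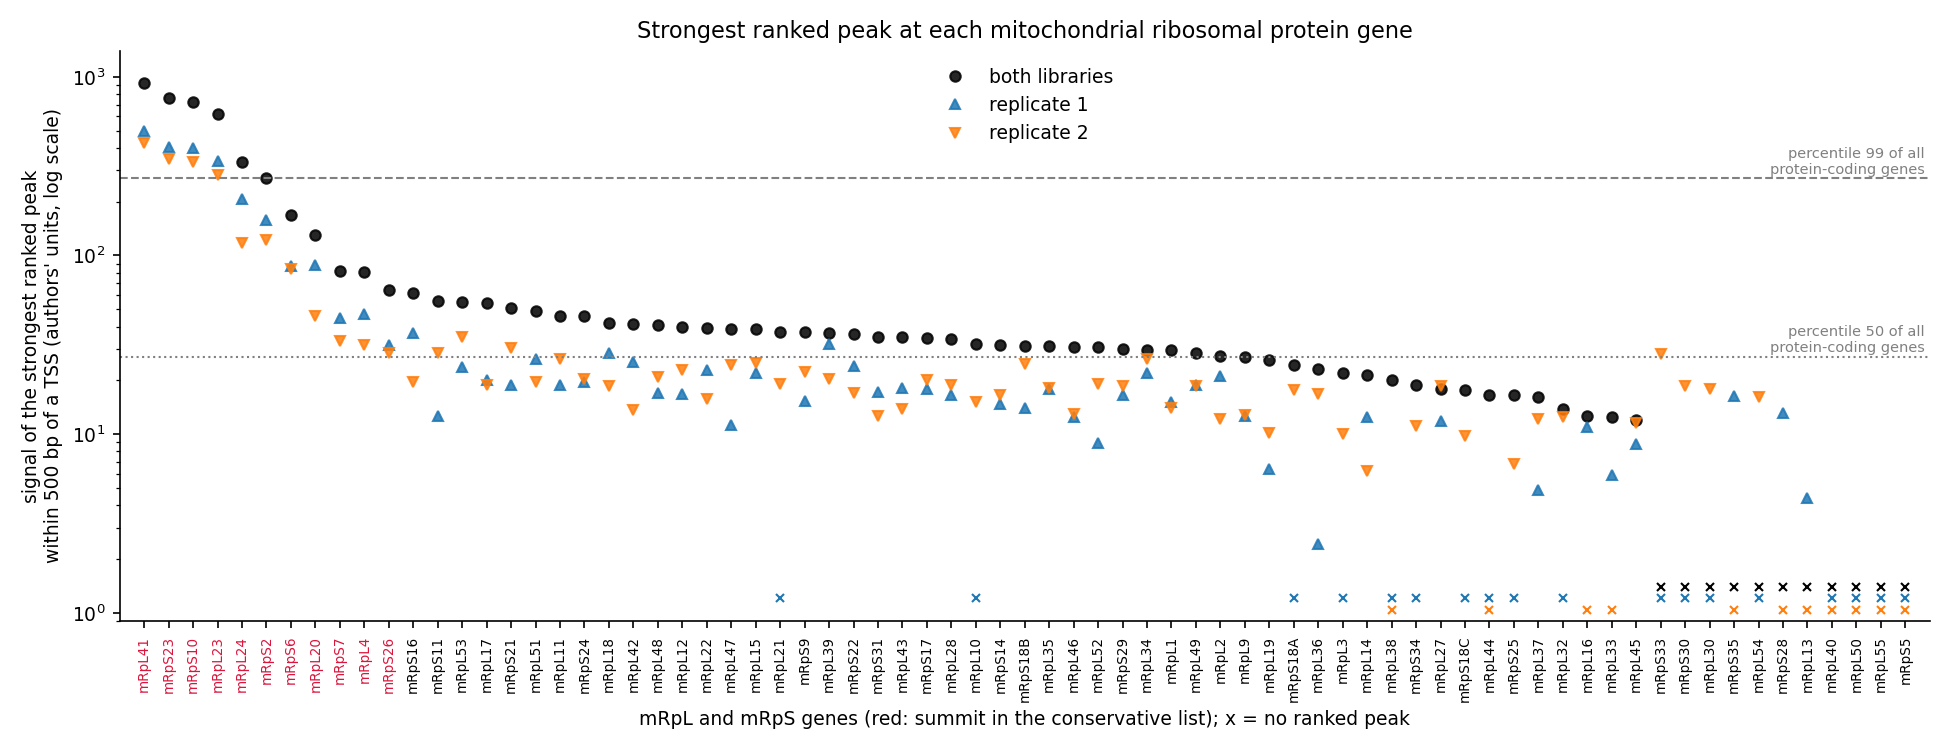
Signal of the strongest ranked peak within 500 bp of a TSS (authors' units, log scale, y axis) for each of the 73 genes (x axis), in the ranked list of both libraries (black circles), replicate 1 (blue) and replicate 2 (orange); crosses mark genes with no ranked peak in that list and red names the 11 bound genes. In the list of both libraries, signals at the bound genes fall from 921 at mRpL41 to 64.1 at mRpS26. In the same list the 62 genes that were not bound lie between 12 and 61.3 where they have a peak.

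The replicates gave the same order for the 4 strongest genes, while mRpL24 and mRpS2 changed places, as did mRpS6 with mRpL20 and mRpL4 with mRpS7. Across the 11 bound genes the signal in replicate 1 was 1.04 to 1.93 times that in replicate 2 (median 1.20) and was the higher one in 11 of 11. Replicate 1 was also higher at 61.2% of the other 1554 bound genes with a ranked peak in both (median ratio 1.11), but at 14 of the 39 unbound mitochondrial ribosomal protein genes with one (median 0.894). Summits moved little, by at most 15 bp in replicate 1 and 52 bp in replicate 2 from the conservative summit. Over the 50 genes with a ranked peak in both replicates, Spearman's rho between the signals was 0.661 and Pearson's r between their log2 values 0.901, and over the 39 unbound ones these were 0.304 and 0.323. For all 9343 protein-coding genes with both, the values were 0.58 and 0.70. These correlations run across genes, which share the depth and background of each library and are not replicates.

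**Figure D3:**
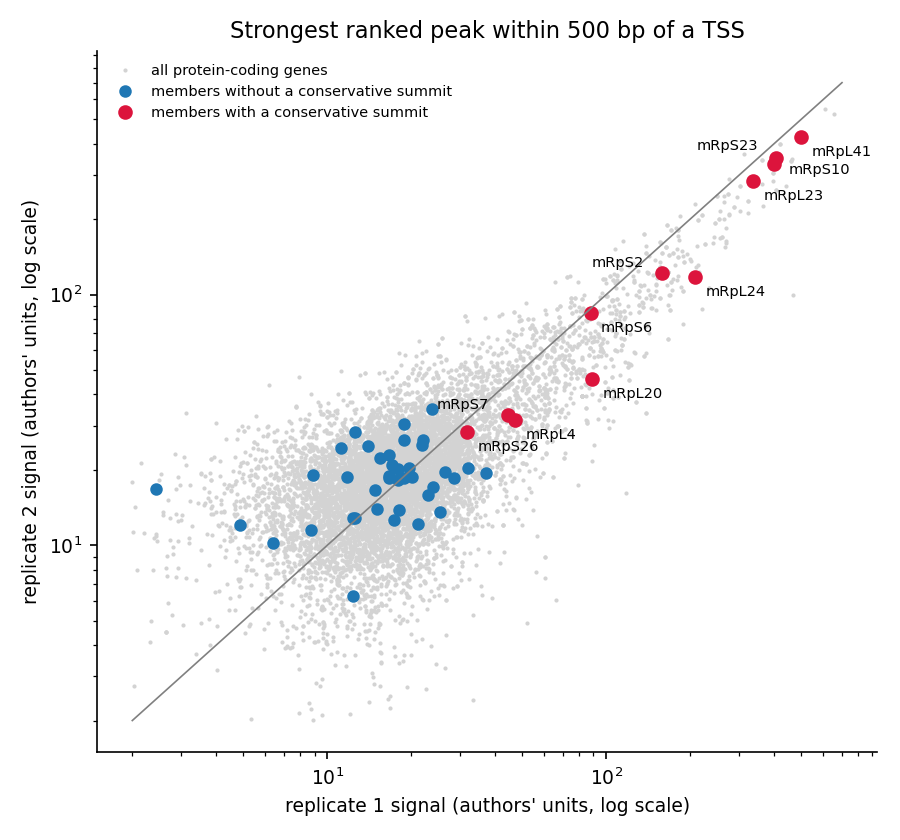
Signal of the strongest ranked peak within 500 bp of a TSS in replicate 1 (x axis) and replicate 2 (y axis), both in authors' units on log scales, for the 11 bound genes (red, named), the 39 unbound ones with both values (blue) and all 9343 protein-coding genes with both values (grey); the line marks equal signals. All bound genes lie below the line of equal signals, the strongest in the thin upper right tail of the grey cloud, and most unbound ones lie within its dense centre.

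Most of these genes are small and stand head to head with another gene. A divergent neighbour on the other strand with its TSS less than 1000 bp away was annotated for 58 of the 73 genes (79.5%), against 36.2% of all protein-coding genes (5052) and 59.1% of the bound ones. The median gap was 283 bp, close to the 298 bp of all such protein-coding genes. All 11 bound genes had such a neighbour, as did 47 of the 62 unbound ones (75.8%). Read against genes of the same arrangement, the share bound was 19.0% of the head-to-head mitochondrial ribosomal protein genes (9.87 to 31.4%), beside 18.4% of all head-to-head protein-coding genes. None of the 15 without a divergent neighbour was bound, which allows a share of up to 21.8% (exact 95% interval), beside 7.21% of other protein-coding genes. The genes had a median length of 0.909 kb against 2.16 kb for all protein-coding genes, and 67 of them (91.8%) had 1 annotated TSS against 73.5%. Bound and unbound genes had like lengths, with medians of 0.861 and 0.909 kb.

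Because of this arrangement most peaks cannot be given to 1 gene. Of the 11 summits, 9 also lay within 500 bp of the TSS of another protein-coding gene, and 9 lay between the start sites of a pair less than 1000 bp apart (all but those of mRpL23 and mRpS26). The neighbour's TSS was the nearer one at 6 of them. The mRpS23 summit lay 396 bp upstream of mRpS23 and 96 bp upstream of CenG1A, which encodes an ArfGAP family protein. The mRpS10 summit was nearly central, 145 bp upstream of mRpS10 and 112 bp upstream of Art3, an arginine methyltransferase gene. At mRpS2 it was likewise near the middle, 120 bp from the TSS and 102 bp from that of Mon1, whose product acts in endosome maturation.

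The other pairs were less even. The mRpL24 summit lay 138 bp from its own TSS and 80 bp from that of betaggt-I (a geranylgeranyl transferase subunit), and the mRpL20 summit 236 bp from its own and 163 bp from that of Icmt (isoprenylcysteine carboxyl methyltransferase). The member was nearer at mRpS6 (88 bp, against 360 bp for Cip4, an F-BAR protein gene) and at mRpS7 (167 bp, against 233 bp for Cdk1, the mitotic kinase gene). At mRpL23 the summit lay 132 bp upstream of CG9004. The mRpS26 summit lay 462 bp upstream of mRpS26 and 32 bp inside CG13698, in a noncoding exon of that gene. The mRpL4 summit, 112 bp upstream, had no other TSS within 500 bp. Outside the conservative list, the mRpS16 summit lay 17 bp downstream of its TSS, in a noncoding exon, with that of cg (combgap, a zinc finger protein gene) 114 bp away, and the mRpS11 summit lay in a coding exon of Ns1 (nucleostemin), 477 bp from the mRpS11 TSS and 420 bp inside Ns1.

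**Figure D4:**
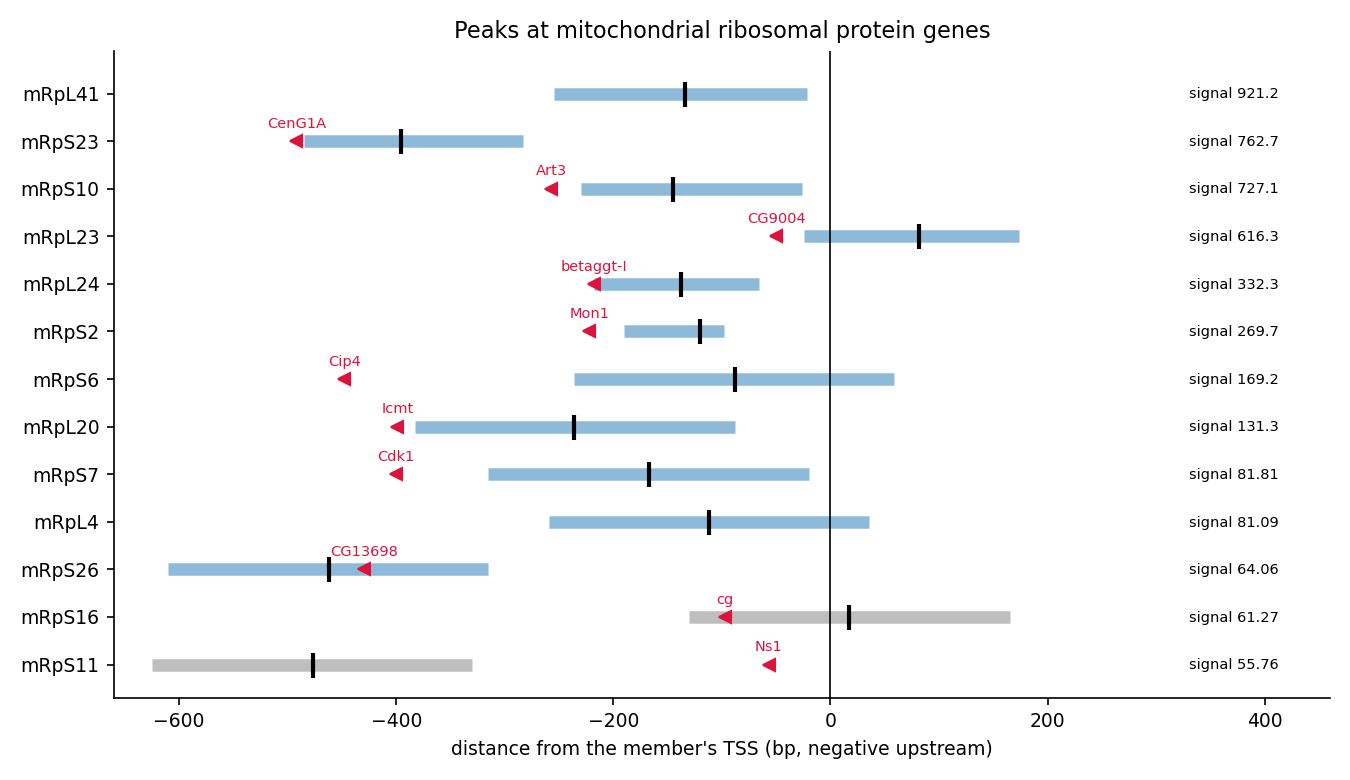
Position of peaks (bars), summits (black ticks) and the TSS of the protein-coding neighbour (red triangles) relative to the TSS of each mitochondrial ribosomal protein gene (x axis, bp, negative upstream), for the 11 conservative peaks (blue) and the 2 of the optimal list alone (grey). A triangle is drawn only where the neighbour's TSS is within 500 bp of the summit. The divergent neighbours of mRpL41 and mRpL4 are farther away and not drawn. Summits lie upstream at 10 of the 11 conservative peaks, from 462 bp to 88 bp, and the 6 strongest peaks are drawn narrower than the others.

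Summits lay upstream of the TSS at 10 of the 11 genes (90.9%), beside 79.7% of the other 1562 bound protein-coding genes. The median signed distance was 138 bp upstream, close to the 122 bp of the others, whereas the 50 bound cytosolic ribosomal protein genes had a median of 26 bp upstream. The 6 strongest member peaks were narrower than the 296 bp that 92.3% of conservative peaks share, the narrowest being that of mRpS2 (93 bp). The other 5 had that width. Narrow peaks were strong in the whole list too, with a median signal of 316 over 231 peaks against 78.8 over those of 296 bp.

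Summits at the bound genes lay mostly in DNA rich in A and T. Within 50 bp of the summit, A and T made up a median of 73.3% of the DNA at the 11 genes (47.5 to 84.2%), against 63.4% at the other 1261 conservative summits near protein-coding TSS (quartiles 52.5 and 71.3%). The longest run of A and T in that window had a median of 14 bases at the 11 genes, from 8 at mRpS26 to 30 at mRpL20, and was 14 at mRpL41. At the other promoter summits the median was 9 bases (quartiles 6 and 13), and 11 (8 and 14) at those in the upper signal quartile of the list. The 8 strongest member peaks lay between 70.3 and 84.2%, and the weakest, mRpS26, was the lowest at 47.5%, with mRpL4 at 59.4% next. Stronger summits also had more A and T among the other promoters. Those in the upper signal quartile (above 124) had a median of 69.3% (382 summits) and those in the lower quartile (up to 64.6) 52.5% (265 summits). Spearman's rho between A+T content and signal was 0.43 across the other promoter summits and 0.516 across the 11, a description over summits of the same libraries.

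**Figure D5:**
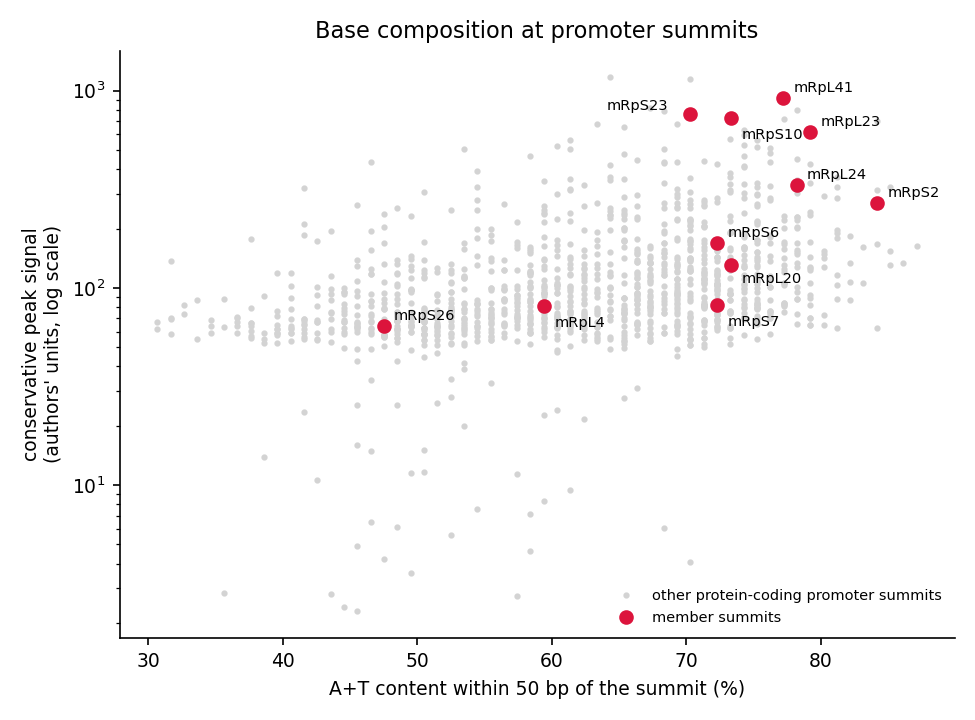
A+T content within 50 bp of the summit (percent, x axis) and conservative peak signal (authors' units, log scale, y axis) for the 11 summits at mitochondrial ribosomal protein genes (red, named) and the other 1261 promoter summits (grey). The 8 strongest of the 11 lie at 70.3% or above, and mRpS26 (64.1) lies at 47.5%.

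Upstream DNA of these genes was rich in A and T whether or not a peak was present. The window had the same length and was centred 138 bp upstream of the TSS, the median summit position at the 11 bound genes. Within it the median A+T content was 72.3% over the 73 genes, against 65.3% over all protein-coding genes and 68.3% over the bound ones. It was 76.2% at the 11 bound genes (quartiles 73.3 and 77.7%) and 71.8% at the 62 unbound ones (64.6 and 76.2%), ranges that overlap. A+T content can also move how well DNA is amplified and sequenced, and its part in the signal was not tested.

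Short words were counted at the summits as well. The 10 words of 8 bases that were most over-represented at the 3004 conservative summits away from these genes, relative to flanks 400 bp away, consisted of A and T alone. At least 1 of them, on either strand, was present within 50 bp of 7 of the 11 summits (mRpL41, mRpS23, mRpS10, mRpL23, mRpS6, mRpL20 and mRpL4). The share was 27.4% at other promoter summits, 24.5% at all other conservative summits and 12.8% in the flanks. The words were picked at those other summits against those flanks, so a higher share there than in the flanks follows from the choice. This holds for the single words below too. No share at strong peaks alone is given. In windows upstream of the TSS the share was 28.4% over all protein-coding genes, and 19 of the 62 unbound mitochondrial ribosomal protein genes had such a word (30.6%). The word ATTTTTAA was present at 4 of the 11 summits (mRpL41, mRpS23, mRpL20 and mRpL4), against 4.83% of other summits and 2.4% of flanks. The word TATATTAA was present at mRpL23 and mRpS6, on one strand or the other, both within capitals in the printed sequences, against 2.7% of other summits and 0.616% of flanks. TTTAAAAA was at 3 of the 11, ATATTTTA at 2, and TATTTTAA and TAAAATAA at 1 each. ATTTAAAA, ATATTAAA, AAAAATAT and AAATATAT were at 0 of the 11, against 4.89, 3.36, 5.16 and 4.83% of other summits. For single words the other summits are all 3004, not promoters or strong peaks alone. Words that overlap are not separate counts, and runs of A and T hold many of them.

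Known promoter motifs were searched on both strands as exact letters, within 100 bp of summits and in promoters from 250 bp before to 50 bp after the TSS. The DNA replication-related element (DRE, TATCGATA), a core promoter element of housekeeping genes, was at 0 of the 11 summits and at 5.08% of other promoter summits. In promoters it was held by 15 of the 73 genes (20.5%) against 9.36% of all protein-coding genes, 3 of them bound and 12 of the 62 unbound ones (19.4%). The Motif 1 core (GGTCACACT), another housekeeping element, was likewise at 0 of 11 summits (2.46% of others) and in 8 promoters (11.0% against 6.04%), all of unbound genes.

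The GAGA word (GAGAG) was at the mRpL23 summit alone of the 11, against 26.2% of other promoter summits, and in 12 promoters (16.4% against 29.8%). The TATA word (TATAAA) was at 4 summits (mRpL23, mRpS2, mRpS7 and mRpL4), against 31.2%, and in 34 promoters (46.6% against 45.9%). It consists of A and T and can overlap the runs described above. The initiator word (TCAGTT) was at 0 of 11 (12.8% of others) and in 13 promoters (17.8% against 26.2%). The Zelda word (CAGGTA), bound by an activator of the early embryonic genome, was at the mRpS23 summit alone (3.49% of others) and in 7 promoters (9.59% against 6.25%). The E-box (CACGTG), the NRF-1 type word (GCGCATGC), the CTCF core (AGGNGGC) and the ETS type word (CCGGAAG) were at 0 of 11 summits, against 2.85, 0.397, 6.19 and 1.51% of others. They were in 5, 1, 6 and 0 promoters of the 73 genes (6.85, 1.37, 8.22 and 0%), against 4.23, 1.05, 8.3 and 1.1% of all. With 11 summits, a count of 0 says only that these letters were not in these windows.

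Every gene was also read in lists that were not thresholded. These were the ranked list of each replicate and the ranked list of both libraries that holds the conservative peaks. A further ranked list of both libraries, which holds the optimal peaks (142104 peaks in all), was not read gene by gene. The ranked lists also hold peaks that missed the limit, and in that of both libraries 62 of the 73 genes had some peak within 500 bp of a TSS (84.9%, against 82.8% of protein-coding genes). In replicate 1's ranked list it was 55 (75.3% against 76.2%) and in replicate 2's it was 62 (84.9% against 78.3%). The strongest ranked signal had a median of 35.1 over the genes with a peak, against 31.1 over protein-coding genes with one. Without the bound genes it was 31.3 against 28.3. By this signal 37 of the 73 genes lay between the quartiles of all protein-coding genes, and the median gene was at percentile 59.0. At the upper end 10 lay at or above percentile 90 (65.4), 8 at or above percentile 95 (105) and 6 at or above percentile 99 (270), all of them bound.

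The genes next below the thresholded lists were mRpL53 (signal 55.2, IDR 0.01), mRpL17 (54.2), mRpS21 (50.6), mRpL51 (48.7) and mRpL11 (45.9), with signals of 18.8 to 26.5 in replicate 1 and 18.8 to 35.0 in replicate 2. Their IDR in the ranked list that holds the conservative peaks was 0.01 to 0.0562, whereas that of the 11 bound genes was 1e-05 to 0.00617. The lowest ranked signals were at mRpL45 (12), mRpL33 (12.4), mRpL16 (12.6), mRpL32 (13.9) and mRpL37 (16.2). Of the 60 genes in no thresholded list, 49 had a ranked peak, with a median of 31.1. Their summits were upstream at 21 of 49 (42.9%, beside 42.3% of other protein-coding genes without a conservative summit), at a median of 253 bp from the TSS (217 bp for the others). In the list of both libraries that was read, 11 genes had no ranked peak, and mRpL40, mRpL50, mRpL55 and mRpS5 had none in any of the 3 ranked lists read.

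Counts by chromosome arm and by family are small. Arm 2L held 5 bound genes of 12, 3L held 4 of 17, 3R held 1 of 21, 2R held 1 of 12 and X held 0 of 11, which allows a share of up to 28.5% (exact 95% interval). The share of all protein-coding genes that were bound differed little between these arms. It was 11.7% on 2L, 12.2% on 3L, 11.8% on 3R, 10.9% on 2R and 9.52% on X. The ranked signal of the 73 genes had a median of 48.7 on 2L, 38.3 on 2R, 38.1 on 3L, 30.3 on 3R and 21.3 on X, against 32.5, 31.6, 32.0, 31.7 and 27.3 for protein-coding genes. Genes of bacterial families were bound at 8 of 46 (17.4%; 7.82 to 31.4%) and mitochondria-specific ones at 3 of 27 (11.1%; 2.35 to 29.2%), intervals that overlap. The families were assigned after the values were known.

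Other nuclear genes for mitochondrial gene expression were read in the same way. None of the 9 mitochondrial translation factor genes found by name had a conservative peak (up to 33.6%), and none of the 15 mitochondrial aminoacyl-tRNA synthetase genes (up to 21.8%). Of 17 genes for mitochondrial DNA and RNA factors 2 were bound (11.8%; 1.46 to 36.4%), beside the background of 11.3%. At PNPase, for the polynucleotide phosphorylase of mitochondrial RNA, the signal was 815 (chr3R:31404551-31404760; 464 and 347 in the replicates), of the same height as at mRpL41 and mRpS23, with the summit 80 bp upstream. At mtSSB, for the single-stranded DNA binding protein of mitochondrial DNA, it was 181 (89.9 and 85.6), with the summit 323 bp upstream.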

How the data were processed

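ChIP-seq peak lists of 2 libraries of 1 group were analysed. Per the texts deposited beside the samples, the lists are on dm6, ranked or thresholded by IDR, made from each library or from both and a further input file. Neither aligner nor peak caller is named in these texts or the labels (not given in the sources used here). The deposited signal is the authors' value per peak, its unit not stated. The deposited score is the IDR rescaled to at most 1000, and was at least 830 in the thresholded lists. The authors' ranked lists give the −log10 of the global IDR. Depth is unknown.

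Summits were assigned to TSS of Ensembl release 115 with Python 3.11.15, numpy 2.4.6, pandas 2.3.3, scipy 1.17.1 and matplotlib 3.10.9. All 73 genes had the same coordinates in RefSeq's Release 6 annotation. A replicate's signal at a peak is that of its strongest ranked peak overlapping it. The assignment was tested on simulated peaks. No test was run, since there was 1 group. The alternatives were other windows, lists, thresholds, assignments and start sites.

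The genes, lists and motifs were chosen with earlier results of these data known. Genes with a thresholded peak, their neighbours, the 5 highest and the 5 lowest of the rest and bound genes of the other lists were named, except cytosolic ribosomal protein genes, given as counts. Sequences are those of the 6 strongest peaks outside arm 2R.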

Additional observations from a re-analysis of the deposited data

How the results depend on the processing

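The number of bound genes (11) stayed within 1.5 times under 9 of 10 alternatives, as did the counts of mRpL genes (5) and mRpS genes (6). Giving each peak to its nearest protein-coding TSS alone left 5 genes, 3 mRpL and 2 mRpS. The median signal of the bound genes (270) moved by more than the SD between the medians of the replicates' own lists (43.4) in several settings. It was 219 with a window of 1000 bp, 169 with the optimal list, 474 when only peaks at or above the list's median signal counted, and 169 when each peak counted for its nearest protein-coding TSS. In a single library's own list it was 122 to 183, on that library's own signal scale. The SD comes from these values alone and does not measure the spread of the median of 270. No paired analysis was possible because there was only 1 group.

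Peaks between divergent genes cannot be given to 1 of them, and fragments of sonicated chromatin limit how finely a summit is placed. Peak lists hold no reads, so a gene without a listed peak has no measured level. The weaker peaks (mRpS7, mRpL4, mRpS26, mRpS16 and mRpS11), with signals of 55.8 to 81.8, differed between lists. Their IDR in the ranked list of both libraries that holds the conservative peaks was 0.00219, 0.00245, 0.00617, 0.049 and 0.0166 in that order. The peaks at mRpS16 and mRpS11 passed in the optimal list, with scores of 944 and 860 there. The IDR in the ranked list behind the optimal list was not read, so 0.049 and 0.0166 are not the values by which they passed.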

Other observations

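The genes tko and bonsai encode the small-subunit proteins S12 and S15 but do not carry the mRpS prefix, and were not counted. Neither had a summit within 500 bp of a TSS in any of the 4 thresholded lists. The strongest ranked signal of both libraries was 41.3 at tko (22.4 in replicate 1 and 14.2 in replicate 2) and 16.2 at bonsai (6.35 and 13.1), within the range of the unbound genes.

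The conservative list was not a subset of the optimal list, since 392 of its 3016 peaks had no peak of the same start and end there. All 11 bound genes had a peak of the same signal in both lists.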
